A study of Homo sapiens with 6 samples.

Results

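Homologous recombination repairs DNA double-strand breaks by copying from an intact sister strand, and the Fanconi anaemia proteins clear crosslinks between the strands and pass them to the same machinery. A cell senses the break, trims its ends to single strands, pairs them with the intact copy with the help of BRCA and other mediator proteins, and halts division through the kinases ATM and ATR until the copy is made. In dividing cells many of these genes are transcribed from late G1 into S phase. The set described here holds 33 such genes, taken as a fixed list and matched by Entrez identifier to Affymetrix probe sets annotated to exactly 1 gene. Of the 33, 29 had such a probe set, and BRCA2, FANCA, FANCD2 and RBBP8 were not analysed here. They stand among 19777 genes with a probe set. The brightest probe set of each gene was used, by mean log2(value + 16) over all arrays. All 29 passed the filter on dim probe sets, and FANCB passed it only just. The filter left 12663 genes in the comparison.

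The RNA was from JJN3 cells, an established human line grown from a plasma cell tumour, myeloma, and was measured on 6 U133 Plus 2.0 arrays. Both groups are the same line after viral transduction: 3 arrays carry an shRNA against CKS1B, a cofactor of cyclin-dependent kinases and of the SCF-SKP2 ubiquitin ligase, and 3 a scrambled shRNA. Titles give the arrays the letters A, B and C, the title of scrambled array B has an added word, "poly", that no label explains, and the labels describe the CKS1B hairpin no further. Nothing states whether replicate arrays were grown as separate cultures, and p-values then cover only how much these arrays vary, possibly for technical reasons. In bulk RNA, fewer cells of a type and less RNA per cell cannot be told apart. Values are linear MAS5 intensities scaled to the same trimmed mean on every array. Differences are CKS1B shRNA minus scrambled in log2(value + 16), so that changes of dim genes come out too small.

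The targeted gene was lower on every array labelled for its shRNA. CKS1B read 8266, 8441 and 7294 with the scrambled shRNA (letters A, B, C) and 481, 269 and 828 with the CKS1B shRNA. The groups did not overlap, and the difference was -4.02 in log2 units (SE 0.44), with p = 0.1 in a two-sided exact permutation test, the smallest that 3 arrays against 3 allow. In limma the 6 arrays gave an adjusted p of 0.246. Without array B the difference was -3.63, with an adjusted p of 0.00126. Of 8 plasma cell markers 7 passed the filter, SLAMF7 being the exception, as did all 3 markers of a MAF translocation. Of the markers of other cells 3 of 3 for T cells, 3 of 4 for stroma, 1 of 2 for B cells and 0 of 3 for myeloid cells passed it. CKS1B shRNA array B stood apart: its correlation with the other arrays over all probe sets was 0.577 to 0.610, against 0.879 to 0.958 among the other 5. The 3'/5' ratio of the actin control, which is high in degraded RNA, was 12.4 there, 2.93 on CKS1B shRNA array C, 1.11 on CKS1B shRNA array A and 1.05 to 1.66 on the scrambled arrays. The summed value of 3 T cell markers was 3324 on CKS1B shRNA array B and 300.1 to 1003 on the others. CD3E read 1235 there and 98.7 to 305.9 on the others, and CD3D 1219 against 41.2 to 539.1. Array B was counted in the filter that these markers passed. The part of RNA quality or of other cells in the results was not tested. Each result below is therefore given for the 6 arrays and for the 5 that remain without array B.

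The regulatory sequences of 4 of these genes are shown because their brightest probe sets read lower on CKS1B shRNA arrays A and C than on any scrambled array. CHEK2 had the smallest p of the set without array B, and EXO1, MRE11 and PALB2 were lower on array B as well. RAD54L and TOPBP1 also read lower on arrays A, B and C than on any scrambled array, but are not shown. Each is the stretch of 250 bases before the start of transcription, 5′ to 3′ in the direction of the gene, from RefSeq (GRCh38.p14). Capitals mark 2 motifs found on either strand: CCAAT, bound by NF-Y in many cell cycle genes, and TTTNNCGC, a loose form of the E2F site. CHEK2 lies at chr22:28741821-28742070 on the minus strand, EXO1 at chr1:241848481-241848730 on the plus strand, MRE11 at chr11:94493845-94494094 on the minus strand and PALB2 at chr16:23641311-23641560 on the minus strand. EXO1 has 2 annotated starts, and the one shown was picked for its number of matches.
CHEK2: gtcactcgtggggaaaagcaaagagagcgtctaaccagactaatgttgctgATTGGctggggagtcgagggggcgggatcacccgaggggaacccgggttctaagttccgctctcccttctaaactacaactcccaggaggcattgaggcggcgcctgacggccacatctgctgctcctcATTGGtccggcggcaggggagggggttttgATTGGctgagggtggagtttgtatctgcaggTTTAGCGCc
EXO1: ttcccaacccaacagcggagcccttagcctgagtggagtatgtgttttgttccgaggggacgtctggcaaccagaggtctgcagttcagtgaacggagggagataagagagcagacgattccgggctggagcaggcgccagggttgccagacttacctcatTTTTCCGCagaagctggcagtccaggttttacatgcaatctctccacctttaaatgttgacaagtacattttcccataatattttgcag
MRE11: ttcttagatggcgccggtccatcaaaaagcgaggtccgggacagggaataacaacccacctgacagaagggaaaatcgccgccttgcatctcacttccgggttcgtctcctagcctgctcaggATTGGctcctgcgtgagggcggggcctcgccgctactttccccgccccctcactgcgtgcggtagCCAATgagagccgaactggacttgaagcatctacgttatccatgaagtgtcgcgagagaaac
PALB2: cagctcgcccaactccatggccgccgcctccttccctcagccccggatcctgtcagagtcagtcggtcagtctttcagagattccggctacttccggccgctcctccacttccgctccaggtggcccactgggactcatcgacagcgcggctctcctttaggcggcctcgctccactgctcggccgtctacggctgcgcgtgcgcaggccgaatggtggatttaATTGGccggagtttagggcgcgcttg

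CHEK2 held 3 CCAAT matches, which begin 199, 70 and 40 bases before the start, and 1 TTTNNCGC match at 9 bases. MRE11 held CCAAT at 127 and 62 bases, PALB2 at 26 bases, and EXO1 held TTTNNCGC at 89 bases. No match overlapped another. RefSeq windows were matched for 26 of the 29 genes, with none for RAD54B, NBN and FANCI. CCAAT was found for 13 of the 26 (50%), against 37.0% of 27305 genes and 32.0% of 35116 windows. TTTNNCGC was found for EXO1, FANCC and CHEK2, 11.5% of the 26, against 7.15% of genes and 5.92% of windows. Of the 14 genes with both CKS1B shRNA arrays A and C below all scrambled arrays, 8 held CCAAT and 3 held TTTNNCGC. Of the other 12 with a window, 5 and 0 did. A gene was counted if any of its windows held the motif. Among the 14, RAD54L held CCAAT and TOPBP1 held neither motif. A match says only that the letters stand in the window.

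The comparison asks whether transcripts of the repair machinery differ when CKS1B is lowered. Without array B, 25 of the 29 genes read lower with the CKS1B shRNA and 4 read higher. Their median log2 difference was -0.34, or 78.8% of the scrambled level. Over all 12663 genes 53.5% read lower, with a median of -0.036. In 14 of the 29 (48.3%) arrays A and C were both under the lowest scrambled array, and in 0 both were over the highest. The same held for 14.4% of all genes downward and 13.6% upward. The 14 were BRCA1, BARD1, PALB2, BRIP1, RAD54L, MRE11, BLM, EXO1, FANCC, FANCG, FANCL, FANCM, CHEK2 and TOPBP1. Single genes did not pass the threshold: 0 of the 29 had an adjusted p under 0.05 in limma, where 0.0395% of all genes did (5 genes). At an unadjusted p under 0.05, 4 of the 29 were lower (CHEK2, BRCA1, FANCM and EXO1), against 4.54% of all genes.

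With all 6 arrays, 23 of the 29 read lower and 6 read higher. Their median log2 difference was -0.25, against -0.078 over all genes, of which 55.7% read lower. The groups did not overlap in 5 of the 29 (17.2%), all lower: PALB2, RAD54L, MRE11, EXO1 and TOPBP1. Over all genes 6.41% did not overlap downward and 4.94% upward. In limma 0 of the 29 passed an adjusted p of 0.05, as did 0% of all genes, and 0 passed an unadjusted p of 0.05 downward, against 1.75% of all genes. The smallest adjusted p among the 29 was 0.933.

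**Figure D1:**
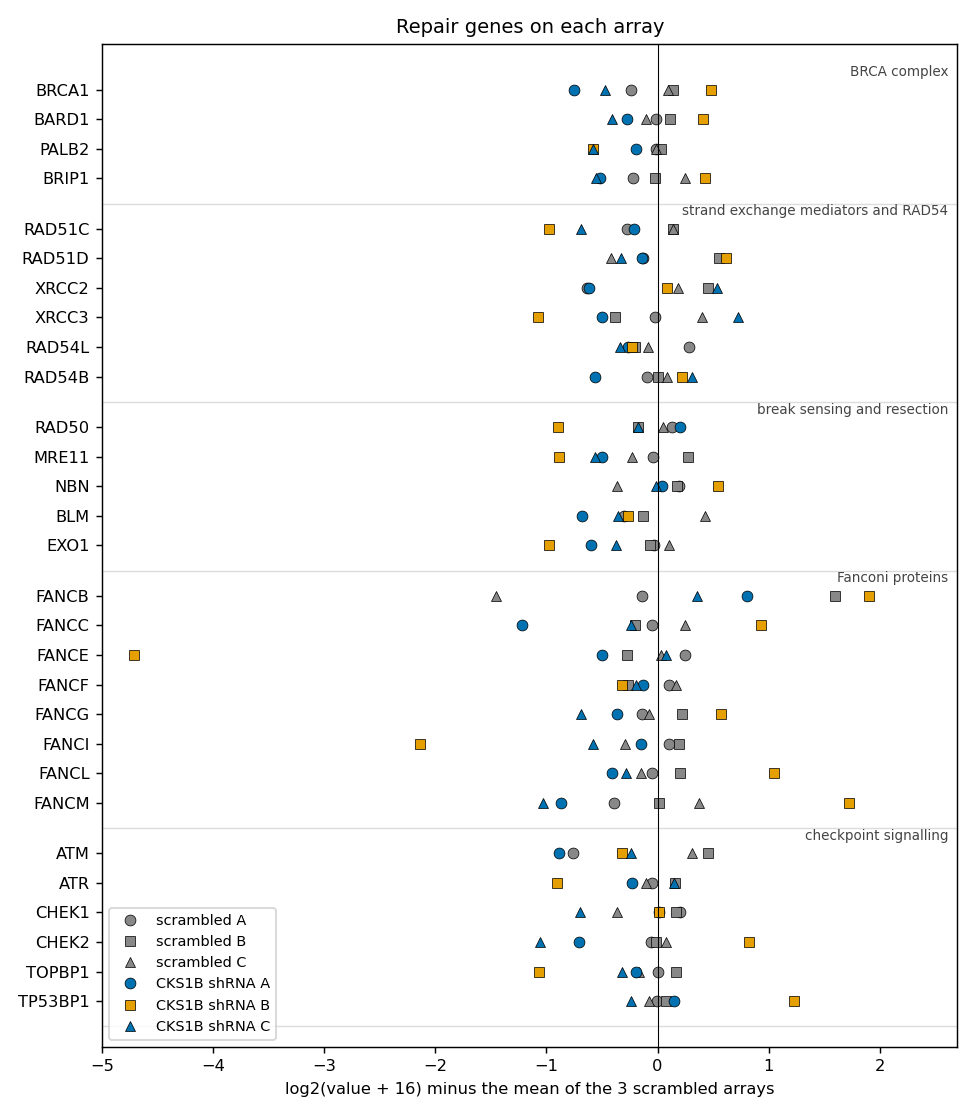
Each row is 1 gene, and each point 1 array, as log2(value + 16) minus the mean of the 3 scrambled arrays. Grey points are scrambled arrays, blue points CKS1B shRNA arrays A and C, and orange squares CKS1B shRNA array B. Blue points lie left of all grey points in 14 of 29 genes, while orange squares are the highest of the 6 points in 12 genes and the lowest in 10.

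Array by array, the lower values were shared by CKS1B shRNA arrays A and C and absent as a shift of the set on array B. The median distance of the 29 genes from the scrambled mean was -0.36 log2 units on array A and -0.33 on array C, with 24 and 23 of the 29 genes below it. Array B lay at 0.016, with 14 of 29 below, and its quartiles ran from -0.90 to 0.57. Each scrambled array, compared with the remaining 2, lay at -0.073, 0.17 and 0.045 for A, B and C. The medians of all genes lay between -0.041 and 0.019 on the 6 arrays. Both arrays A and C thus lay below the range of the 3 scrambled arrays, and array B lay inside it. On array B the values were scattered rather than shifted: it was the highest of the 6 arrays for 12 genes and the lowest for 10. This scatter was not particular to the repair genes, since the quartiles of all genes on array B were wider, -1.11 to 0.88. How many of all genes were highest or lowest there was not counted.

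The deposited scaling bears on these counts. Without array B the median of the 29 genes lay -0.31 from that of all genes. Centring every array on its median, which moves all genes alike and so cannot alter that distance, raised the median of all genes to 0.16. Under it 20 of 29 read lower (all genes 35.9%), and both arrays lay below all scrambled arrays in 5 of 29 (BRCA1, BRIP1, BLM, FANCM and CHEK2), or 17.2% against 5.57% of all genes. After quantile normalization 26 of 29 read lower, at -0.30 relative to all genes, and 12 of 29 did not overlap (41.4%, against 14.2% of all genes). With 6 arrays the distance from all genes was -0.17 as deposited and 0.026 after quantile normalization. Scrambled array C has a narrower range of values (SD of log2 1.83, against 2.20 to 2.24 on the other arrays apart from CKS1B shRNA array B). Without it and array B, 26 of 29 genes read lower and 18 did not overlap (62.1%, against 22.6% of all genes).

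The BRCA complex was the group in which every gene analysed lay below the scrambled arrays on both A and C in the deposited values, 4 of 4. Of all genes 14.4% did so. After centring on the median BRCA1 and BRIP1 still did, and BARD1 and PALB2 did not. BRCA1, a ubiquitin ligase that steers breaks to recombination, has Entrez identifier 672. BRCA1 read 1708.5, 2226 and 2162 with the scrambled shRNA (letters A, B, C) and 1188, 2828 and 1448 with the CKS1B shRNA. Arrays A and C were the lowest of the 6 and array B the highest. The log2 difference was -0.62 without array B (SE 0.24, limma adjusted p = 0.5) and -0.25 with all 6 arrays, and after quantile normalization of the 6 it was 0.055. Its other probe set gave -0.70 without array B and -0.75 with it, and there array B was the lowest of the 6.

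BARD1, the partner that BRCA1 needs for its ligase activity, showed the same order. BARD1 read 989, 1081 and 926 with the scrambled shRNA (letters A, B, C) and 822.5, 1329.9 and 748.5 with the CKS1B shRNA. In log2 units the difference was -0.34 when array B was left out (limma adjusted p = 0.653) and -0.089 when it was kept. Another BARD1 probe set read lowest on array B and gave -0.62 without that array and -0.90 with it, and the third read highest on array B and gave -0.15 and 0.23.

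PALB2, which ties BRCA1 to BRCA2, is the gene with the tightest scrambled arrays of the set, an SD of 0.023 on the log2 scale against a median SD of 0.24. PALB2 read 1631, 1673 and 1622 with the scrambled shRNA (letters A, B, C) and 1433, 1092 and 1089.6 with the CKS1B shRNA. All 3 CKS1B shRNA arrays were below all scrambled arrays. The log2 difference was -0.45 with 6 arrays (SE 0.30, adjusted p = 0.933 in limma) and -0.39 without array B (adjusted p = 0.593). BRIP1, a helicase that binds BRCA1, read 695, 795 and 962 with the scrambled shRNA and 560.5, 1098 and 547 with the CKS1B shRNA. Arrays A and C were the lowest and array B the highest, for a log2 difference of -0.54 without array B and -0.21 with it.

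Among the mediators of strand exchange and the RAD54 proteins, 5 of 6 read lower without array B, but only RAD54L did not overlap. Over all genes 53.5% read lower and 14.4% did not overlap downward. After centring on the median RAD54L overlapped too. RAD54L is a motor protein that works at the step of strand invasion. RAD54L read 1171, 834 and 906 with the scrambled shRNA (letters A, B, C) and 795, 819 and 754 with the CKS1B shRNA. Its 3 CKS1B shRNA arrays were the 3 lowest, by a narrow margin below scrambled array B, and the log2 difference was -0.28 with 6 arrays and -0.30 without array B (limma adjusted p = 0.704).

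RAD51C, a mediator of strand exchange, read 1234, 1659 and 1649 with the scrambled shRNA and 1289, 755 and 927 with the CKS1B shRNA. Arrays B and C were below all scrambled arrays and array A was inside their range, for log2 differences of -0.63 and, without array B, -0.45. Its other probe set gave -0.46 and -0.36. RAD51D, XRCC2, XRCC3 and RAD54B overlapped both with and without array B, though RAD51D did not once scrambled array C was left out as well, with log2 differences without array B from -0.24 for RAD51D to 0.11 for XRCC3. RAD51D, a partner of RAD51C, read 307, 503 and 249 with the scrambled shRNA and 305, 528 and 266 with the CKS1B shRNA, with array B the highest of the 6 and arrays A and C inside the scrambled range. Its other probe set was nearly as bright (mean 8.44 against 8.49), and there array B was the lowest of the 6, at 117.0. That probe set gave 0.090 without array B and -0.48 with it. It was the brighter when array B was left out of the choice.

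XRCC2, which forms a complex with RAD51C and RAD51D, read 293, 641 and 529 with the scrambled shRNA and 297, 494 and 678 with the CKS1B shRNA. XRCC3, which pairs with RAD51C alone, read 356, 274 and 483 with the scrambled shRNA and 250.2, 163.5 and 609 with the CKS1B shRNA. XRCC2 and XRCC3 each read lower on array A and higher on array C than the scrambled mean, so their averages of -0.043 and 0.11 hide values that point opposite ways. RAD54B, a relative of RAD54L, read 1183, 1263 and 1343 with the scrambled shRNA and 846, 1468.5 and 1571 with the CKS1B shRNA, with array A below the scrambled range and arrays B and C above it.

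In break sensing and resection, MRE11, EXO1 and BLM lay below all scrambled arrays on arrays A and C, and RAD50 and NBN did not. Of all genes 14.4% lay so. After centring on the median only BLM of these genes did. The MRN complex of MRE11, RAD50 and NBN finds broken ends, and MRE11 makes the first cut. MRE11 read 1839.9, 2302.5 and 1611 with the scrambled shRNA (letters A, B, C) and 1340.3, 1018 and 1277 with the CKS1B shRNA. The 3 CKS1B shRNA arrays were the 3 lowest, at a log2 difference of -0.65 (SE 0.32, adjusted p = 0.933 in limma) and -0.53 without array B (adjusted p = 0.526). A dimmer MRE11 probe set past the filter read 192, 204 and 320 with the scrambled shRNA and 263, 173 and 120 with the CKS1B shRNA. It gave -0.37 and -0.36, and its groups overlapped, with array A inside the scrambled range.

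RAD50 and NBN, the partners of MRE11, gave log2 differences of 0.013 and 0.012 without array B. RAD50 read 1742, 1412 and 1648 with the scrambled shRNA and 1833, 847 and 1412 with the CKS1B shRNA, with array B below the scrambled range, array A above it and array C level with its lowest value. NBN read 5034, 4969 and 3422 with the scrambled shRNA and 4535, 6451.5 and 4356 with the CKS1B shRNA, with only array B above the scrambled range. The 4 NBN probe sets that passed the filter lay between -0.093 and 0.012 without array B.

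EXO1, an exonuclease that lengthens the single-stranded ends, was lower on all 3 arrays. EXO1 read 2063, 2010.4 and 2268 with the scrambled shRNA (letters A, B, C) and 1385, 1063 and 1621 with the CKS1B shRNA. The log2 difference was -0.65 (SE 0.32, adjusted p = 0.933 in limma) and -0.49 without array B (adjusted p = 0.519). BLM, a helicase that works beside EXO1 and later untangles the joined strands, read 1648, 1865 and 2751 with the scrambled shRNA and 1269, 1695 and 1584 with the CKS1B shRNA. Array B passed the lowest scrambled array by a small margin, and the log2 difference was -0.52 without it and -0.43 with it.

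Of the 8 Fanconi genes analysed, 7 read lower without array B and 4 of these did not overlap: FANCC, FANCG, FANCL and FANCM. Over all genes 53.5% read lower and 14.4% did not overlap downward. After centring on the median only FANCM of the 4 did not overlap. FANCM is a motor protein that brings the Fanconi core complex to stalled forks. FANCM read 289.7, 389 and 504 with the scrambled shRNA (letters A, B, C) and 204, 1307 and 181 with the CKS1B shRNA. Arrays A and C were the 2 lowest and array B was the highest by far, so the log2 difference was -0.95 without array B (SE 0.38, adjusted p = 0.504 in limma) and -0.058 with it. Another FANCM probe set gave -0.60 and -0.39. It read 422.5, 333 and 402 with the scrambled shRNA and 239, 392 and 257 with the CKS1B shRNA, with array B inside the scrambled range. Array B was counted when the brightest was chosen, and on the arrays without it this other probe set was the brighter.

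FANCC and FANCG belong to the core complex, and FANCL is its ubiquitin ligase subunit, which marks FANCD2 and FANCI. FANCC read 819.9, 738 and 1014 with the scrambled shRNA and 356, 1638 and 719 with the CKS1B shRNA. FANCG read 1695, 2181 and 1769 with the scrambled shRNA and 1450.0, 2786 and 1150.5 with the CKS1B shRNA. FANCL read 1009.6, 1205 and 941 with the scrambled shRNA and 786, 2179.6 and 856 with the CKS1B shRNA. In all 3 array B was the highest of the 6 and arrays A and C were the lowest. Without array B the log2 differences were -0.73, -0.53 and -0.34, with adjusted p of 0.532, 0.526 and 0.654 in limma, and with it they were -0.17, -0.16 and 0.12.

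FANCI, which is clamped on DNA with FANCD2, and the core subunits FANCE and FANCF had negative differences in both comparisons, and their groups overlapped without array B. FANCI read 2897, 3077 and 2197 with the scrambled shRNA and 2427, 599 and 1796.5 with the CKS1B shRNA, and its log2 difference of -0.96 was -0.37 without array B. FANCE, by its only probe set, read 709.6, 489 and 608.5 with the scrambled shRNA and 416, 7.3 and 627 with the CKS1B shRNA. Its log2 difference of -1.72 was the largest of the set in size with 6 arrays, and without array B the difference was -0.22, with array A below the scrambled range and array C inside it. FANCF read 1586, 1221 and 1657 with the scrambled shRNA and 1342.5, 1179.7 and 1285 with the CKS1B shRNA, with array B the lowest and arrays A and C inside the scrambled range. It gave -0.17 without array B, and 0.32 by its other probe set.

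By its brightest probe set, FANCB was the gene that read above the scrambled mean on all 3 CKS1B shRNA arrays, and it was the dimmest. The mean of that probe set was 7.37 against the filter at 7.34, with array B its highest value. The other FANCB probe sets did not pass the filter. They gave -0.52, -0.80 and -1.11 without array B, and -0.72, -0.56 and 0.12 with it. The values that follow are from the brightest. FANCB read 89.8, 335 and 26.3 with the scrambled shRNA (letters A, B, C) and 187, 418 and 132 with the CKS1B shRNA. The scrambled arrays spanned arrays A and C, the spread of the scrambled arrays was the widest of the set (SD 1.53 on the log2 scale), and the log2 difference of 0.58 without array B had an SE of 0.84, and array weights turned it to -0.088.

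**Figure D2:**
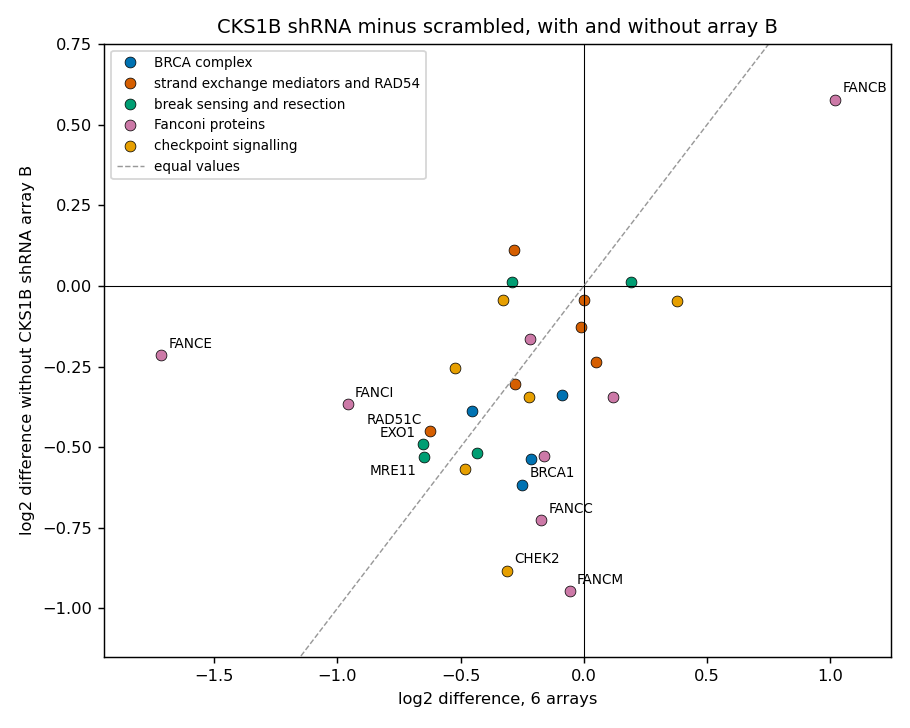
Each point is 1 gene, with the log2 difference of CKS1B shRNA minus scrambled over 6 arrays on the horizontal axis and without CKS1B shRNA array B on the vertical axis. Colours mark the role of the gene, and the dashed line marks equal values. FANCE and FANCI lie to the left of the line, at -1.72 and -0.96 with 6 arrays, and FANCM, CHEK2 and FANCC lie furthest below 0 without array B.

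In checkpoint signalling all 6 genes read lower without array B, and CHEK2 and TOPBP1 did not overlap. Over all genes 53.5% read lower and 14.4% did not overlap downward. After centring on the median only CHEK2 did not overlap. CHEK2 is the kinase that ATM switches on at double-strand breaks (Entrez 11200). CHEK2 read 758, 784 and 835 with the scrambled shRNA (letters A, B, C) and 478, 1415 and 373 with the CKS1B shRNA. Arrays A and C averaged 54.2% of the scrambled level and array B was the highest of the 6. The log2 difference was -0.88 without array B (SE 0.27), with the smallest p of the set, 0.00942 unadjusted and 0.46 adjusted in limma over all genes. With 6 arrays it was -0.31 (adjusted p = 0.938).

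TOPBP1, the activator of ATR, read 2548, 2853 and 2262 with the scrambled shRNA and 2225, 1206 and 2039 with the CKS1B shRNA. The 3 CKS1B shRNA arrays were below all scrambled arrays, arrays A and C by little, for log2 differences of -0.52 with 6 arrays and -0.25 without array B. CHEK1, the kinase that ATR switches on, read 3591, 3497 and 2414 with the scrambled shRNA and 3151, 3153 and 1911 with the CKS1B shRNA, and only array C was below the scrambled range. The difference without array B was -0.34 on the log2 scale, at an adjusted p of 0.693 in limma.

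ATM and ATR start the 2 arms of the checkpoint. ATM read 875, 2049 and 1854 with the scrambled shRNA and 798, 1197 and 1259 with the CKS1B shRNA, so scrambled array A lay with the low arrays and the groups overlapped at a log2 difference of -0.57 without array B. The other ATM probe sets past the filter gave -0.016 and -0.66 without array B. ATR read 1836, 2115 and 1765 with the scrambled shRNA and 1615.5, 1009 and 2103 with the CKS1B shRNA, with arrays A and B below the scrambled range and array C near its top, and gave -0.043 without it, a sign that turned to 0.16 after centring on the median, which moved all genes upward. Another ATR probe set gave -0.44. TP53BP1, which holds back resection in favour of end joining, read 931, 987 and 884 with the scrambled shRNA and 1033, 2202 and 790.0 with the CKS1B shRNA. It gave -0.045 without array B and 0.38 with it, where array B was the highest of the 6 by far. Another TP53BP1 probe set past the filter gave -0.31 without array B and -0.20 with it.

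Other genes of the same machinery came from a longer list of 47, of which 44 passed the filter. Without array B 30 of the 44 were lower and 14 were higher. Their median log2 difference was -0.14, or -0.10 relative to all genes. It read 0.060 after centring, which moved all genes upward by the same amount. The groups did not overlap in 9 of the 44 downward (20.5%) and 5 upward, against 14.4% and 13.6% of all genes, and after centring in 1 downward and 8 upward. With 6 arrays 31 were lower, at a median of -0.21. In limma 0 of the 44 passed an adjusted p of 0.05. Lowest by p among them were BABAM1 and SEM1 upward and WRN and RAD51AP1 downward. BABAM1, of the BRCA1-A complex, read 3882, 3036 and 2918 with the scrambled shRNA and 5164, 721 and 5715 with the CKS1B shRNA (log2 0.74 without array B, adjusted p = 0.46). SEM1, a small partner of BRCA2 that is also a proteasome subunit, read 4892, 3818 and 3821 with the scrambled shRNA and 6753, 1756 and 5974 with the CKS1B shRNA (log2 0.61, adjusted p = 0.485). On array B both were the lowest of the 6 arrays. WRN, a helicase of the BLM family, read 702, 694 and 909 with the scrambled shRNA and 395, 1200.1 and 517 with the CKS1B shRNA (log2 -0.73, adjusted p = 0.504). RAD51AP1, which promotes strand invasion, read 2122, 2385 and 1839.5 with the scrambled shRNA and 1578, 713 and 1284 with the CKS1B shRNA, lower on all 3 arrays (log2 -0.89 with 6 arrays and -0.56 without array B).

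Genes of end joining, which rejoins broken ends without a template, had a median near that of all genes in the deposited values. Without array B 6 of 11 read lower and 5 read higher. Their median log2 difference was -0.053, and it was -0.16 after quantile normalization and 0.14 after centring, which moved all genes upward alike, and 0 passed an adjusted p of 0.05. With 6 arrays 7 of 11 read lower, at a median of -0.18. POLQ, the polymerase of the back-up pathway that uses short matching ends, read 1232, 1746 and 799.8 with the scrambled shRNA and 847, 647 and 373 with the CKS1B shRNA (log2 -1.07, adjusted p = 0.502 in limma). Its groups overlapped, with CKS1B shRNA array A above scrambled array C. XRCC6, the Ku70 subunit that caps broken ends, read 15669.5, 13939 and 15124 with the scrambled shRNA and 18247, 572 and 20055 with the CKS1B shRNA. Array B was far below the rest, and arrays A and C were above all scrambled arrays (log2 0.36 without array B). XRCC4, which works with the ligase LIG4, read 550.3, 504 and 621 with the scrambled shRNA and 497, 478 and 349.6 with the CKS1B shRNA, lower on all 3 arrays (log2 -0.40 without array B). DCLRE1C, the nuclease Artemis, read 1031, 1385 and 777 with the scrambled shRNA and 1027.5, 1449 and 1489.5 with the CKS1B shRNA and overlapped.

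Genes of S phase, the stage in which DNA is copied, were read on the same arrays. Without array B 7 of 17 read lower and 10 read higher. Their median log2 difference was 0.072, or 0.11 above all genes, a direction that turned after quantile normalization, where 11 of 17 read lower at -0.17 relative to all genes. With 6 arrays 12 of 17 read lower at a median of -0.62, and array B lay below the scrambled mean for 13 of them. In limma 0 passed an adjusted p of 0.05. CDC6, which loads the replicative helicase, had the smallest p and read 2030.0, 1992 and 1372 with the scrambled shRNA and 1164, 1599 and 693 with the CKS1B shRNA (log2 -0.97 without array B, adjusted p = 0.46). TYMS, MCM7 and CCNE1 followed, all upward without array B, at 0.42, 0.34 and 0.48.

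**Figure D3:**
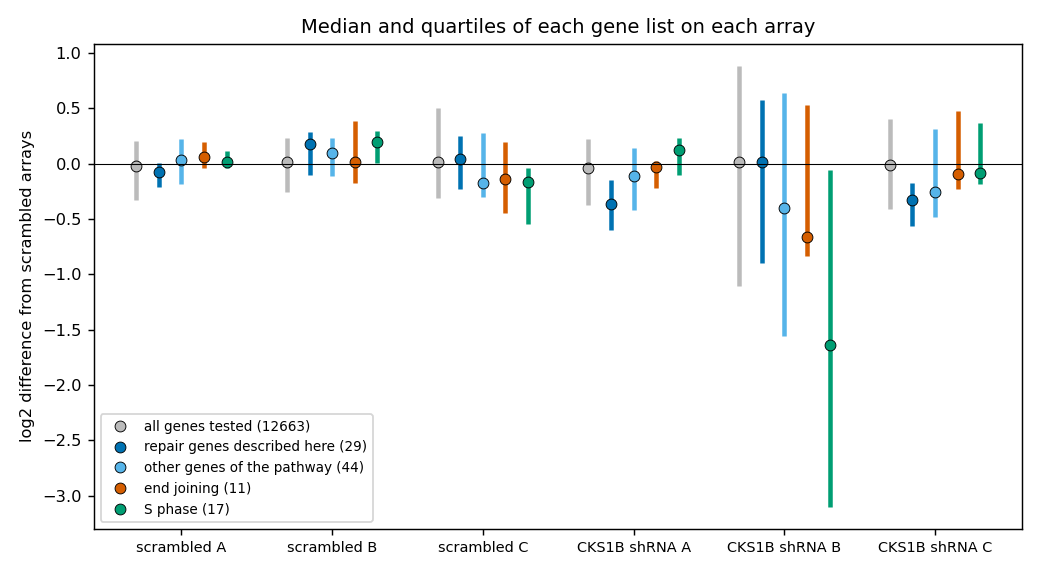
For each array the points are the median, and the bars the quartiles, of the log2 difference from the scrambled arrays over 5 sets of genes. Scrambled arrays are set against the other 2 of their group, and CKS1B shRNA arrays against all 3. The 29 repair genes lie at -0.36 and -0.33 on the CKS1B shRNA arrays of letters A and C, and the S phase genes lie furthest down on array B.

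Probe sets of the same gene gave a check on these values. Of the 67 probe sets of the 29 genes, 52 passed the filter, and 45 of the 52 read lower without array B. In 15 genes 2 or more passed, and in 10 of the 15 every one of them read lower without array B. The 5 with both signs were CHEK1, FANCF, NBN, RAD50 and RAD51D. On array B alone, 27 of 52 probe sets read below the scrambled mean, and in 7 of the 15 genes the probe sets had both signs. The CHEK1 probe sets spanned 7.21 log2 units on array B, from -4.91 to 2.30, and those of BRCA1 stood at 0.48 and -0.83. Without array B the widest span was 1.01, in BRIP1, whose second probe set gave -1.55. The actin 3'/5' ratio of 12.4 goes with these spans on array B. Its part in them was not tested, since the positions of the probe sets in their transcripts were not used here.

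**Figure D4:**
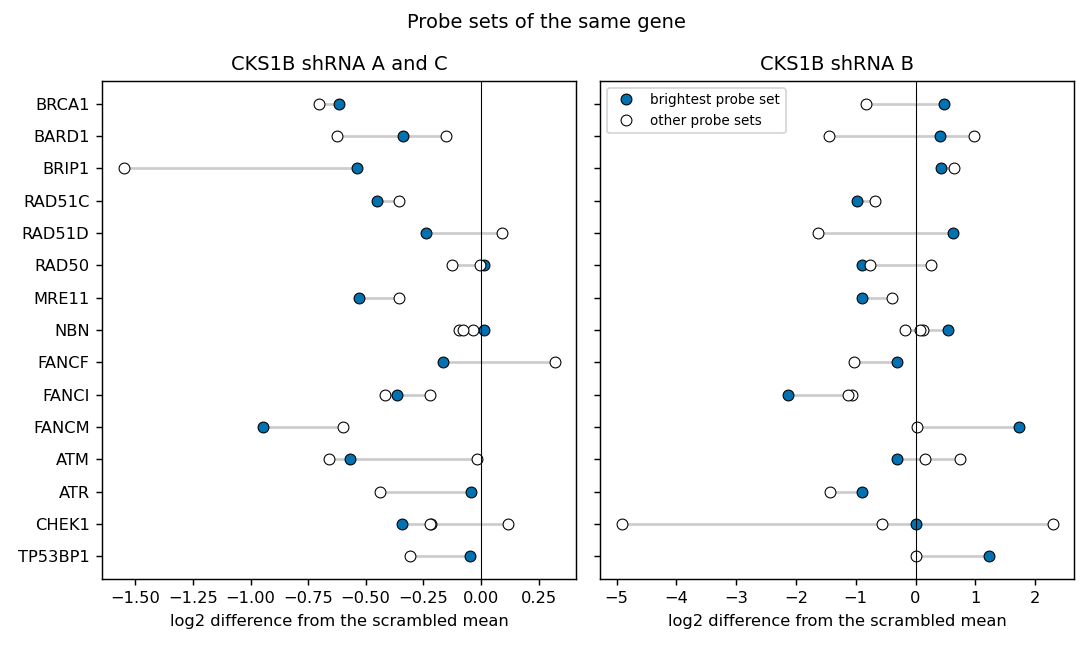
Each row is 1 of the 15 genes with 2 or more probe sets past the filter, and each point 1 probe set, as the log2 difference from the scrambled mean. Filled points are the brightest probe set, and the left panel shows the mean of CKS1B shRNA arrays A and C and the right panel array B. Points of a gene lie within 1.01 log2 units in the left panel and up to 7.21 apart in the right panel.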

How the data were processed

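The authors deposited 1 linear intensity for each probe set on each array. The submitters' processing notes name MAS5, while its version and settings were not given in the sources used here. In the table every array has the same 2% trimmed mean, about 500.0. Of 54675 probe sets 62 controls were left out. Names came from the platform annotation, updated by Entrez identifier through RefSeq, and 41091 probe sets named 1 gene. After adding 16 to the deposited intensities and taking log2, probe sets under the median mean (7.34) were dropped, and the brightest per gene was kept over the 6 arrays, also for the comparison of 5. Groups were compared over 12663 genes with limma 3.58.1 (lmFit, eBayes with trend; R 4.3.3) and Benjamini-Hochberg adjustment at 0.05. The fit was also run on simulated data in which every array had the same spread. No simulated array stood apart as CKS1B shRNA array B did, so that run says nothing about such an array. The number of arrays limits the precision. Fold changes are log2 differences of the deposited values. The members and lists were chosen with earlier results of these data known. All 29 genes analysed are named, with the 4 of smallest p from each other list. Alternatives were other pseudocounts (1, 64), filters, centring, quantile normalization, the letter as a block, no trend, array weights, other choices of probe sets and leaving out arrays. Figures used Python 3.11.15 and matplotlib 3.10.9.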

Additional observations from a re-analysis of the deposited data

How the results depend on the processing

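In all alternatives, 0 of the repair genes passed an adjusted p of 0.05, and their median log2 difference kept its sign. Without array B that median ran from -0.15 after centring to -0.40 with array weights, and with 6 arrays from -0.098 after quantile normalization to -0.48 after centring. The number of genes passing in the whole comparison moved more. With 6 arrays it was 0, but 4 with array weights, 1 without both arrays of letter B, and 0 to 5 when each array was left out in turn, the 5 being reached without CKS1B shRNA array B. Without array B it was 5 (3 lower, 2 higher), and 20 after centring, 2 after quantile normalization, 0 without the trend, 1 when probe sets of a gene were averaged and 0 with only probe sets without a suffix. At an unadjusted p under 0.05 the last case gave 862 genes and that without the trend 970. With 6 arrays 373 genes had an unadjusted p under 0.05. Leaving out a further array gave 0 (without scrambled array C) to 369 (without CKS1B shRNA array A, where array C alone stands for its group and is assumed to vary like the others). No label states whether the letters pair the arrays. Deviations from the group mean correlated at 0.40, -0.081 and -0.080 for the same letter (A, B and C). Those of unlike letters correlated at -0.37 to 0.26. The CKS1B shRNA mean includes array B, which stood apart, so these values cannot decide whether the letters pair the arrays. With the letter as a replicate block, 0 genes passed with 6 arrays and 179 without array B, 0 of them repair genes.

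The log2 differences of single genes that changed sign were, with median centring, RAD51D -0.19, XRCC2 -0.23, NBN -0.043, FANCL -0.11 (6 arrays) and XRCC2 0.15, RAD54B 0.071, FANCF 0.032, ATR 0.16, TP53BP1 0.15 (5 arrays). With quantile normalization, BRCA1 0.055, BARD1 0.091, RAD51D -0.016, XRCC2 -0.17, RAD54B 0.17, FANCC 0.090, FANCG 0.14, FANCM 0.18, CHEK1 0.056 (6 arrays) and XRCC2 0.093, RAD50 -0.0022, NBN -0.14 (5 arrays). With array weights, RAD51D -0.38, XRCC2 -0.15, XRCC3 0.10, RAD50 0.056, NBN -0.097, FANCL -0.38 (6 arrays) and NBN -0.12, FANCB -0.088 (5 arrays). With averaged probe sets, RAD51D -0.22 (6 arrays) and RAD50 -0.039, NBN -0.049, FANCF 0.078 (5 arrays). With only probe sets without a suffix, ATM 0.043 (6 arrays) and RAD50 -0.12, FANCF 0.32 (5 arrays). With leaving out both arrays of letter B, FANCL -0.24, ATR 0.034, TP53BP1 -0.0056 (6 arrays). With the replicate block, RAD51D 0.038, XRCC2 0.18, XRCC3 -0.080, RAD50 -0.074, ATR 0.034 (5 arrays). With probe sets chosen on the 5 arrays, RAD51D 0.090 (5 arrays). Leaving out each of the 6 arrays in turn also changed signs, with these ranges: RAD51D -0.24 to 0.32, XRCC2 -0.32 to 0.31, RAD54B -0.17 to 0.26, FANCM -0.95 to 0.43, BRCA1 -0.62 to 0.0039, BARD1 -0.34 to 0.069, FANCC -0.73 to 0.35, XRCC3 -0.79 to 0.11, RAD50 -0.54 to 0.013, FANCL -0.34 to 0.38, TP53BP1 -0.045 to 0.68, FANCG -0.53 to 0.10, CHEK1 -0.41 to 0.015, CHEK2 -0.88 to 0.058. In the same way the 5 arrays gave RAD51D -0.45 to 0.038, XRCC2 -0.62 to 0.53, XRCC3 -0.50 to 0.73, RAD50 -0.17 to 0.20, ATR -0.23 to 0.15, NBN -0.17 to 0.11, FANCB -0.15 to 1.37, RAD54B -0.57 to 0.31, FANCE -0.50 to 0.072, CHEK1 -0.70 to 0.015, TP53BP1 -0.24 to 0.14.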
